A study of Mus musculus with 6 samples.

Results

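The integrated stress response and the synthesis of serine, folate-bound carbon units and proline were followed in soleus, a postural muscle of the mouse hindlimb that is rich in slow fibres. The genes were chosen by name, 34 of the 43074 gene names in the tables, and all 34 were found under their own names. They comprise 7 transcription factors and cofactors of the ATF4 pathway, 7 effectors of the stress response and 7 genes of amino acid supply. The others are 2 hormones released by stressed cells (mitokines), 3 enzymes of serine synthesis, 6 folate enzymes and 2 enzymes of proline synthesis. The 3 StarD7 mKO libraries came from muscle with a knockout of StarD7, a protein that carries lipids to mitochondria. These libraries still held Stard7 RNA, at a lowered level given below. They were set against 3 libraries labelled WT, which the series text calls control. The series text gives 3 mice in each group. Age, sex, strain background, the deleted exons and the promoter that drives the deletion are not given in the sources used here, and no other treatment or allele is named.

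Cells sense stress through kinases that phosphorylate the translation factor eIF2alpha. Most protein synthesis then slows, while the messenger RNA of ATF4 is translated better, so that ATF4 protein can rise with little change of its own RNA. ATF4 pairs with C/EBP factors on a short DNA element and switches on genes of amino acid uptake, serine and folate metabolism and tRNA charging. In muscle with a failing respiratory chain this programme is known to raise Gdf15, Fgf21 and the mitochondrial folate enzyme Mthfd2.

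The element that ATF4 binds with C/EBP partners has the core TGATGNAA. These letters were searched on both strands in RefSeq promoter windows (build GRCm38.p6) running 250 bases before to 50 bases after each gene's start. Windows were found for 29 of the 34 members, and 8 of them (27.6%) held the letters, against 4.51% of 27025 genes with a window. The stretches below show why these 8 members are set apart in the results: each is 30 bases read on the strand that carries the core, which is in capitals.
Nupr1 (chr7:126625562-126625591, plus strand): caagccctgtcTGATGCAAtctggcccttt
Trib3 (chr2:152344028-152344057, plus strand): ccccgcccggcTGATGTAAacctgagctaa
Chac1 (chr2:119351038-119351067, minus strand): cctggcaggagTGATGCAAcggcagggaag
Asns (chr6:7693214-7693243, minus strand): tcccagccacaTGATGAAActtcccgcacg
Atf3 (chr1:191183425-191183454, plus strand): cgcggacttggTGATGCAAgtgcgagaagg
Vldlr (chr19:27216809-27216838, minus strand): gctaggagcgcTGATGCAActattgctgct
Fgf21 (chr7:45615611-45615640, plus strand): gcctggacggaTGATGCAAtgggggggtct
Pycr1 (chr11:120643833-120643862, minus strand): tgccctgtgtaTGATGCAAtgcacaaggct
The core was TGATGCAA in 6 of them, TGATGTAA in Trib3 and TGATGAAA in Asns. It lay before the start in 7 members, beginning 23 bases (Asns) to 200 bases (the other start of Vldlr) upstream, and 15 bases into the transcript of Trib3. For Nupr1, Chac1 and Asns, whose values did not overlap between genotypes, the 250 bases before the start are printed on the strand of the gene, with the same 8 letters in capitals.
Nupr1 (chr7:126625471-126625720, minus strand): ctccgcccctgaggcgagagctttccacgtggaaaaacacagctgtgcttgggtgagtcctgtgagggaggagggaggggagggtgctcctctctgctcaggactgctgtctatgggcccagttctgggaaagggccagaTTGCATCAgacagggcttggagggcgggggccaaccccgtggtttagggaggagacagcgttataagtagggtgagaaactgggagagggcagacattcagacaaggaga
Chac1 (chr2:119350992-119351241, plus strand): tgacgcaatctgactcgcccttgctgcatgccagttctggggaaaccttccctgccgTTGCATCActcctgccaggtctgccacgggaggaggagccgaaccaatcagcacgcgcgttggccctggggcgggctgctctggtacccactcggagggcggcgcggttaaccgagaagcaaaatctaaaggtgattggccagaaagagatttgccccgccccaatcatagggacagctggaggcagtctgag
Asns (chr6:7693210-7693459, minus strand): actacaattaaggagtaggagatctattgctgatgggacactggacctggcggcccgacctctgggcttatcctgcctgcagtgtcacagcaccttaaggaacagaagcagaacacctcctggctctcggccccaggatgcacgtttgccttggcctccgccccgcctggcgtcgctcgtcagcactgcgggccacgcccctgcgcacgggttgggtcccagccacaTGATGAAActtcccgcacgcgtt
A match is a description of the letters and says nothing about binding in these muscles. The members were chosen for the pathway that these letters belong to. The other 21 members with a window, Atf4, Ddit4, Gdf15 and Mthfd2 among them, did not hold these letters there.

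Between 42928382 and 47404691 reads in mKO and between 47171045 and 51287715 reads in WT could be recovered from the deposited TPM values. TPM, a read number per unit of gene length as a part of the library's constant total, allows levels to be compared between genes. Stard7 stood at 21.8, 21.3 and 34.6 TPM in mKO, against 87.5, 95.37 and 94.99 TPM in WT (log2 fold change −1.83, SE 0.16, adjusted p = 0.00585, limma). Over the other settings its adjusted p missed the threshold when WT replicate 2 was left out (0.0703) or no low genes were removed (0.0858), in a range of 1.58e-05 to 0.0858. Markers of skeletal muscle and of slow fibres were all present. The 6 skeletal muscle markers summed to 63651, 64414 and 66893 TPM in mKO, against 75593, 81645 and 76585 TPM in WT, with no overlap. None lay above 0 (median −0.26), 3 had an unadjusted p under 0.05, 0 were called by limma, and Tnnt3 is also in the fast list. The 8 slow markers summed to 18185 to 25922 TPM in mKO and 16911 to 21878 TPM in WT. Of these 8, 7 lay above 0 (median 0.24), 1 had an unadjusted p under 0.05 and 0 were called by limma. Markers of fast fibres also stood apart by genotype, by more. They summed to 18569, 17502 and 23998 TPM in mKO, against 31774, 36675 and 33719 TPM in WT, with no overlap. All 9 lay below 0 (median −4.03) with an unadjusted p under 0.05, none was at 0 in all libraries, and 3 fell by the adjusted test. Mybpc2, a fast-fibre myosin-binding protein, averaged 0.647 TPM in mKO and 169 TPM in WT (log2 fold change −6.73, adjusted p = 8.37e-06, limma). Actn3, the alpha-actinin of fast fibres, averaged 14.4 TPM in mKO and 264 TPM in WT (−4.08, adjusted p = 1.42e-05, limma). Pvalb, the calcium buffer of fast fibres, averaged 14.01 TPM in mKO and 713 TPM in WT (−5.87, adjusted p = 0.00466, limma), but missed the threshold with no filter (0.0742) and when WT replicate 2 was omitted (0.0515). Among all tested genes 44.87% lay above 0 and 10.7% had an unadjusted p under 0.05 (limma). The part of these differences in muscle and fibre markers in the member values was not tested. The mitochondrially encoded genes took 46.8% to 48.9% of TPM in mKO and 42.1% to 45.1% in WT. Since the total is constant, nuclear genes then take a smaller part in mKO. Over all genes the median difference on the log2 scale was 0.09 without the mitochondrially encoded genes, against −0.01 with them. Fold changes below are differences of log2(TPM + 1), mKO minus WT, and are smaller than the ratio of TPM where a gene is scarce.

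None of the 31 members that could be tested differed between mKO and WT at an adjusted p of 0.05. Testing required 1 TPM in 3 or more libraries, and Gdf15, Fgf21 and Mthfd1l stayed below that and are given as values. Over all 12301 tested genes limma called 0.520%, with 0.0976% higher and 0.423% lower in mKO, which is 12 and 52 genes. With mitochondrially encoded genes left out the split of calls was 21 higher and 20 lower, and by limma-voom on recovered reads 35 higher and 57 lower. At an unadjusted p under 0.05 there were 7 of 31 members (22.6%), beside 10.7% of all tested genes. The smallest adjusted p of any member was 0.224 in this fit and lay between 0.0982 and 0.594 in the 14 other settings, none of which called a member. Of the 31, 15 had a log2 fold change above 0 and 16 below, with a median of −0.00018, beside 44.87% above 0 and a median of −0.01 over all genes.

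The groups did not overlap for 8 of 31 members (25.8%), beside 16.0% of all tested genes. Of these, 5 were higher in every mKO library (16.1%, beside 5.67%): Nupr1, Trib3, Chac1, Asns and Mthfd2. The other 3 were lower in every mKO library (9.68%, beside 10.3%): Mthfd1, Shmt2 and Aldh1l2. Gdf15, below the filter, was also higher in each mKO library.

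**Figure D1:**
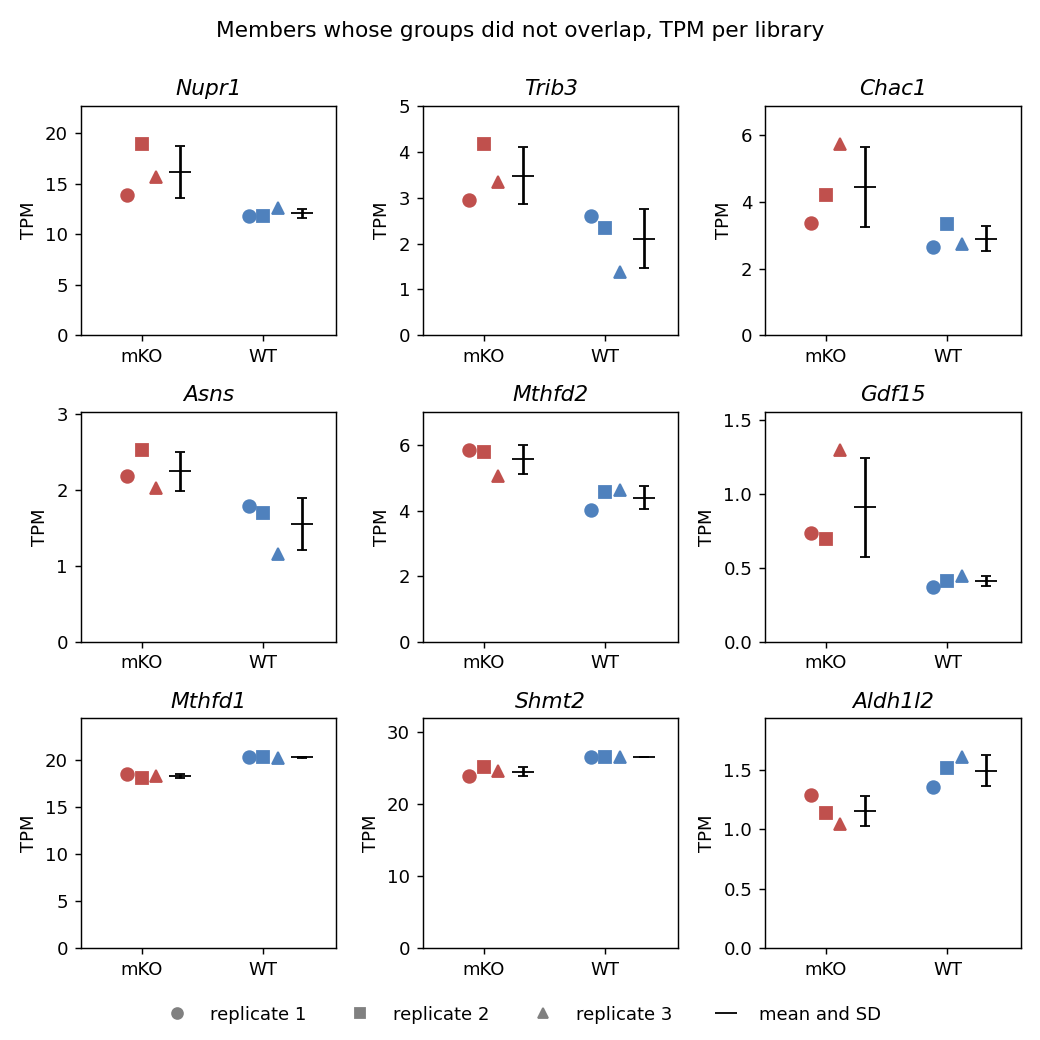
TPM in each library (y axis, from 0) for the 9 members whose mKO and WT libraries did not overlap, mKO left of WT, with symbols for the replicates and a bar for the mean and SD of the 3 libraries. The upper 6 genes stood higher in each mKO library and the lower 3 stood lower, with a difference of −7.64% of the WT mean for Shmt2 and 121% for Gdf15, and no gene passed the test.

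Among the transcription factors, the level of Atf4 itself did not separate the genotypes. Atf4 stood at 135, 149 and 145 TPM in mKO, against 159.9, 135 and 137 TPM in WT. The ranges overlapped, and the 95% interval of the log2 fold change was −0.18 to 0.17 (−0.01, adjusted p = 0.986, limma). Atf5, a related factor active in the mitochondrial unfolded protein response, was the most abundant member at 175, 176 and 192 TPM in mKO, against 198, 185 and 175 TPM in WT. Its mKO libraries lay within the range of the WT libraries, with an interval of −0.19 to 0.11. Cebpg, the C/EBP protein that pairs with ATF4, stood at 26.2, 30.6 and 28.6 TPM in mKO, against 30.6, 28.2 and 29.7 TPM in WT, and its interval was −0.22 to 0.11.

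The remaining factors varied more. Atf3, a stress-induced repressor of the same family, stood at 15.2, 29.9 and 26.2 TPM in mKO, against 21.7, 21.8 and 55.5 TPM in WT. WT replicate 3 was by far the highest library and mKO replicate 1 the lowest, and the log2 fold change of −0.37 became 0.07 without WT replicate 3 and −0.09 without mKO replicate 1. Cebpb, a C/EBP factor induced by stress and inflammation, stood at 61.6, 102 and 63.7 TPM in mKO, against 80.3, 87.9 and 76.2 TPM in WT. Here mKO replicate 2 was above every WT library and the other mKO libraries below them all (log2 fold change −0.14, SE 0.17, adjusted p = 0.841, limma). Leaving out single libraries gave −0.37 (mKO replicate 2), −0.02 (mKO replicate 1), −0.04 (mKO replicate 3) and −0.09 (WT replicate 2).

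Nupr1 and Trib3 are targets and cofactors of this pathway. Nupr1, a small chromatin protein induced by stress, stood at 13.9, 18.9 and 15.7 TPM in mKO, against 11.8, 11.8 and 12.6 TPM in WT. The WT libraries lay close together and each mKO library lay above them, so the mean in mKO was 33.9% higher (log2 fold change 0.38, SE 0.10, adjusted p = 0.224, limma). Its adjusted p ranged from 0.0982 with mitochondrially encoded genes left out to 0.609. Trib3, a pseudokinase that restrains ATF4 and CHOP, stood at 2.94, 4.17 and 3.34 TPM in mKO, against 2.60, 2.34 and 1.38 TPM in WT. Again all mKO libraries were above WT, by 65.3% on average, but on only 64 to 193 recovered reads per library (log2 fold change 0.54, SE 0.17, adjusted p = 0.301, limma). Omitting WT replicate 3, its lowest library, gave 0.36.

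The effectors pointed both ways, with 4 of 7 above 0 and a median of 0.15. Chac1, which breaks down glutathione, stood at 3.37, 4.21 and 5.74 TPM in mKO, against 2.64, 3.33 and 2.75 TPM in WT. The lowest mKO value was just above the highest WT value, on only 98 to 188 recovered reads per library. The mean was 52.9% higher (log2 fold change 0.46, SE 0.16, adjusted p = 0.339, limma). The log2 fold change was 0.29 without mKO replicate 3, the highest library. Ppp1r15a, the stress-induced subunit that directs a phosphatase to eIF2alpha, stood at 23.2, 25.5 and 33.00 TPM in mKO, against 23.7, 20.7 and 20.8 TPM in WT. Only mKO replicate 1 lay within the WT range (log2 fold change 0.30, SE 0.12, adjusted p = 0.442, limma), and the log2 fold change was 0.16 without mKO replicate 3. Stc2, a secreted glycoprotein, stood at 1.85, 3.80 and 2.17 TPM in mKO, against 1.997, 1.44 and 1.47 TPM in WT. Its mean of 2.61 ± 1.05 TPM in mKO and 1.64 ± 0.313 TPM in WT (SD, n = 3 each) rested largely on mKO replicate 2, and the groups overlapped (log2 fold change 0.42, adjusted p = 0.502, limma). Without that library the log2 fold change was 0.20.

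Brakes on growth signalling went in no common direction. Ddit4, an inhibitor of the growth kinase mTORC1 that glucocorticoids and hypoxia also induce, stood at 30.8, 87.2 and 34.04 TPM in mKO, against 48.5, 70.2 and 107 TPM in WT. It was the most variable member within mKO, with an SD of 62.5% of the mean, and its interval of −1.59 to 0.29 leaves the direction unresolved. Its log2 fold change was −0.65, and lay between −1.12 without mKO replicate 2 and −0.36 without WT replicate 3, with −0.38 when mKO replicate 1 was omitted. Sesn2, a leucine sensor upstream of the same kinase, was nearly flat at 1.71, 1.67 and 1.67 TPM in mKO, against 1.69, 1.76 and 1.69 TPM in WT, with an interval of −0.22 to 0.19. Eif4ebp1, the translation inhibitor that mTORC1 switches off, stood at 32.9, 39.5 and 27.4 TPM in mKO, against 33.4, 28.3 and 27.3 TPM in WT. Its groups overlapped, with an interval of −0.15 to 0.45. Vldlr, a lipoprotein receptor and stress target, stood at 55.9, 64.9 and 66.00 TPM in mKO, against 63.8, 71.2 and 68.6 TPM in WT, and its interval was −0.30 to 0.05.

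Atf3, Cebpb and Ddit4 also respond to tissue handling and to glucocorticoids, for which marker lists were summed. The 16 immediate early genes summed to 332, 359 and 385 TPM in mKO, against 374, 347 and 469 TPM in WT. WT replicate 3, the highest library for Atf3 and Ddit4, was highest here too, but it was the lowest WT library for Cebpb (76.2 TPM). Of 15 tested, 0 passed the adjusted test, 5 had an unadjusted p under 0.05 and 10 lay above 0 (median 0.11). Most of these genes thus lay higher in mKO, although the sum leaned lower there. The 15 glucocorticoid and clock genes found in the tables summed to 447, 609 and 524 TPM in mKO, against 525, 581 and 588 TPM in WT. In this sum mKO replicate 1 was lowest and mKO replicate 2 highest, the order that Ddit4 and Cebpb had within mKO. Of 15 tested, 0 passed, 2 had an unadjusted p under 0.05 and 3 lay above 0 (median −0.20). Over all tested genes 44.87% lay above 0 and 10.7% had an unadjusted p under 0.05 (limma). The part of handling or hormones in the member values was not tested.

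**Figure D2:**
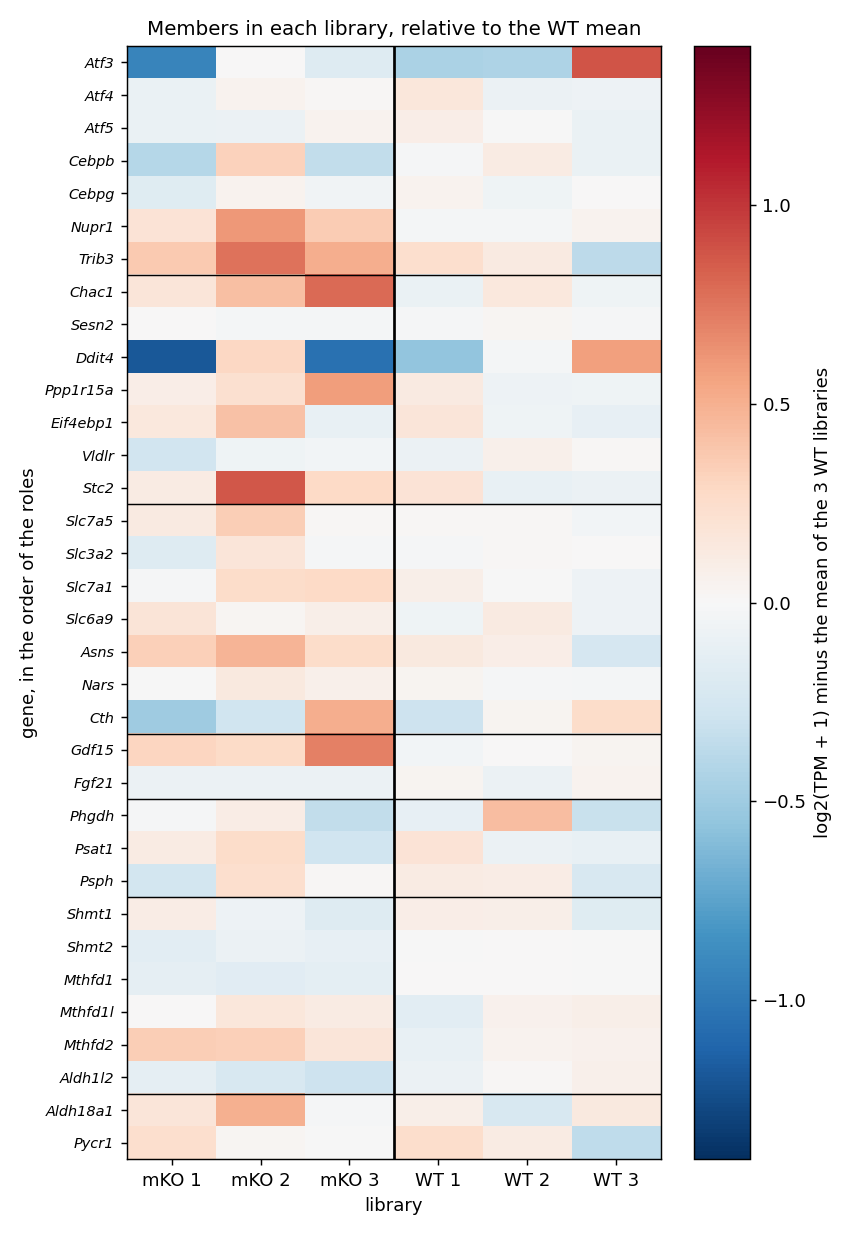
Each of the 34 members (rows, in the order of the roles, separated by lines) in each library (columns, mKO left of WT) as log2(TPM + 1) minus the mean of the 3 WT libraries, in colour from blue (lower) to red (higher). Nupr1, Trib3, Chac1, Asns, Gdf15 and Mthfd2 are red in all 3 mKO columns, while Ddit4 and Cebpb are red in mKO replicate 2 and blue in the other mKO libraries.

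Leaving out Fgf21, 13 of 33 members had their highest value in mKO replicate 2 and 10 had their lowest value in mKO replicate 1. These counts were not taken over all genes, so whether they are particular to the members is not known. The macrophage markers were likewise highest in mKO replicate 2 and lowest in mKO replicate 1, at 124, 223 and 179 TPM in sum in mKO, against 154, 168 and 144 TPM in WT. Of 11 tested macrophage markers 10 lay above 0 (median 0.13), 1 had an unadjusted p under 0.05, 0 passed the adjusted test, and none of the 12 listed was at 0. The fibroblast markers summed to 1214, 1705 and 1479 TPM in mKO, against 1385, 1517 and 1315 TPM in WT, with 5 of 9 above 0, 0 called by limma (3 at an unadjusted p under 0.05) and none at 0. Markers of satellite cells and regeneration summed to 61.3, 79.3 and 48.8 TPM in mKO, against 58.1, 44.99 and 31.9 TPM in WT, with 5 of 7 tested above 0, 0 called by limma (2 at an unadjusted p under 0.05) and none of 8 at 0. Adipocyte markers summed to 777 to 899 TPM in mKO and 827 to 1043 TPM in WT, with 0 of 9 above 0, and endothelial markers to 243 to 252 TPM in mKO and 246 to 261 TPM in WT, with 4 of 8 above 0. Neither list held a call (0 and 1 at an unadjusted p under 0.05) or a marker at 0. In bulk muscle, more cells of a type and more RNA per cell cannot be told apart. All tested genes together had 44.87% above 0 and 10.7% at an unadjusted p under 0.05 (limma). The part of these cell types in the member values was not tested.

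Among genes of amino acid supply, Asns was the member whose groups separated. Asns, which makes asparagine, stood at 2.18, 2.52 and 2.03 TPM in mKO, against 1.79, 1.69 and 1.16 TPM in WT. Each mKO library was above each WT library, by 45.02% on average, on 69 to 150 recovered reads (log2 fold change 0.35, SE 0.13, adjusted p = 0.362, limma). Slc7a5 carries leucine into cells as a dimer with the product of Slc3a2. Slc7a5 stood at 3.19, 3.84 and 2.87 TPM in mKO, against 2.88, 2.87 and 2.72 TPM in WT. Only mKO replicate 3 lay within the WT range, and the difference did not pass (log2 fold change 0.16, SE 0.10, adjusted p = 0.643, limma), with 0.07 when mKO replicate 2 was omitted. Its partner Slc3a2 stood at 11.1, 14.4 and 12.6 TPM in mKO, against 12.5, 12.8 and 12.7 TPM in WT, with an interval of −0.22 to 0.20.

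Slc7a1, the carrier of arginine and lysine, stood at 2.47, 3.21 and 3.27 TPM in mKO, against 2.72, 2.49 and 2.34 TPM in WT, with an interval of −0.08 to 0.43. Slc6a9, a glycine carrier, stood at 2.43, 2.06 and 2.20 TPM in mKO, against 1.90, 2.30 and 1.87 TPM in WT, with an interval of −0.14 to 0.33. The groups of both carriers overlapped. Nars, which charges the asparagine tRNA, stood at 57.7, 63.5 and 60.7 TPM in mKO, against 59.5, 57.2 and 56.9 TPM in WT. Its interval of −0.06 to 0.19 was among the narrowest of the members. Cth, which makes cysteine, stood at 3.22, 3.93 and 7.52 TPM in mKO, against 3.87, 5.12 and 6.15 TPM in WT. The spread within mKO covered the whole WT range, with an interval of −0.68 to 0.50.

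The mitokines were barely expressed. Gdf15, a hormone released by stressed tissue that acts on the hindbrain, stood at 0.738, 0.695 and 1.30 TPM in mKO, against 0.374, 0.413 and 0.446 TPM in WT. Every mKO library lay above every WT library, on 28, 28 and 48 recovered reads in mKO and 16, 16 and 18 in WT. These numbers are all even, so some pairs may have been counted as 2 reads. The mean of 0.909 ± 0.335 TPM in mKO and 0.411 ± 0.0361 TPM in WT (SD, n = 3 each) was a 2.21-fold difference in TPM, without a call when no filter was applied (log2 fold change 0.42, SE 0.13, adjusted p = 0.484, limma). With mitochondrially encoded genes left out Gdf15 passed the filter, at 0.65 (adjusted p = 0.164, limma). It did so only through the 3 mKO libraries, where it was higher, so this value adds no separate evidence of a difference. Fgf21, a metabolic hormone of liver and stressed muscle, had 0 reads in each mKO library, against 2, 0 and 2 reads in WT. A count of 0 allows up to 3 reads where reads are counted singly, which is 0.145 to 0.158 TPM in the mKO libraries. This limit would be higher if pairs were counted as 2 reads. A difference of Fgf21 between genotypes was not detectable at this depth. Its promoter window held the ATF4 letters all the same.

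Serine is made from a glycolytic intermediate by Phgdh, Psat1 and Psph in turn, and none of these steps separated the genotypes. Phgdh stood at 3.18, 3.55 and 2.33 TPM in mKO, against 2.90, 4.73 and 2.42 TPM in WT. Psat1 stood at 2.33, 2.69 and 1.54 TPM in mKO, against 2.52, 1.91 and 1.87 TPM in WT. Psph stood at 2.80, 4.31 and 3.59 TPM in mKO, against 3.92, 3.85 and 2.88 TPM in WT. All 3 enzymes overlapped between groups, with log2 fold changes of −0.09, 0.03 and −0.00018 and adjusted p-values of 0.919, 0.973 and 1 (limma). The intervals, −0.55 to 0.37, −0.33 to 0.39 and −0.34 to 0.34, leave room for moderate differences in either direction. Phgdh was highest in WT replicate 2 and Psat1 lowest in mKO replicate 3.

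The folate enzymes pass carbon units between serine, glycine and formate, partly in mitochondria and partly in the cytosol, and their values diverged. Mthfd2, the mitochondrial dehydrogenase of this path and a familiar marker of mitochondrial stress, stood at 5.84, 5.78 and 5.06 TPM in mKO, against 4.01, 4.56 and 4.63 TPM in WT. All mKO libraries lay above WT, by 26.4% on average (log2 fold change 0.28, SE 0.09, adjusted p = 0.293, limma). Its adjusted p ranged from 0.126 to 0.609 over the settings run. Shmt2, the mitochondrial enzyme that splits serine, stood at 23.9, 25.1 and 24.5 TPM in mKO, against 26.5, 26.6 and 26.5 TPM in WT. All mKO libraries lay below a very tight WT group, a difference of −7.64% (log2 fold change −0.11, SE 0.05, adjusted p = 0.502, limma). Aldh1l2, the mitochondrial enzyme that releases the unit as carbon dioxide, stood at 1.29, 1.13 and 1.04 TPM in mKO, against 1.35, 1.51 and 1.61 TPM in WT. It was lower in each mKO library, on 156 to 198 reads in mKO and 235 to 263 in WT (log2 fold change −0.21, SE 0.10, adjusted p = 0.539, limma).

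In the cytosol, Mthfd1, the enzyme with several activities on the folate ring, stood at 18.4, 18.02 and 18.3 TPM in mKO, against 20.3, 20.3 and 20.2 TPM in WT. The mKO libraries lay below WT, a difference of −9.93%, with the smallest spread within mKO of any member, 1.15% of the mean (log2 fold change −0.14, SE 0.05, adjusted p = 0.372, limma). With mitochondrially encoded genes left out, Mthfd1 lay at −0.03 and Shmt2 at 0.00308, with the median of all genes at 0.09, and Aldh1l2 at −0.18. In that setting Mthfd2 lay at 0.41, Nupr1 at 0.51, Trib3 at 0.72, Chac1 at 0.61 and Asns at 0.52, with no call. TPM values of nuclear genes are larger there, so the added 1 shrinks the differences of scarce genes less. Shmt1, the cytosolic counterpart of Shmt2, stood at 1.91, 1.57 and 1.39 TPM in mKO, against 1.87, 1.87 and 1.39 TPM in WT, with overlapping groups. Mthfd1l, which makes formate in mitochondria, was below the filter at 0.242, 0.383 and 0.338 TPM in mKO, against 0.117, 0.291 and 0.310 TPM in WT, also with overlapping groups.

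Proline synthesis runs through Aldh18a1 and then Pycr1 in mitochondria. Aldh18a1 stood at 4.41, 5.82 and 3.78 TPM in mKO, against 4.11, 3.13 and 4.30 TPM in WT. Only mKO replicates 1 and 2 lay above the WT libraries, and mKO replicate 3 lay among them (log2 fold change 0.22, SE 0.15, adjusted p = 0.676, limma). It lay at 0.08 without mKO replicate 2, at 0.33 without mKO replicate 3 and at 0.11 without WT replicate 2. Pycr1 stood at 2.26, 1.82 and 1.75 TPM in mKO, against 2.29, 1.99 and 1.17 TPM in WT, with its lowest value in WT replicate 3 and an interval of −0.30 to 0.46.

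**Figure D3:**
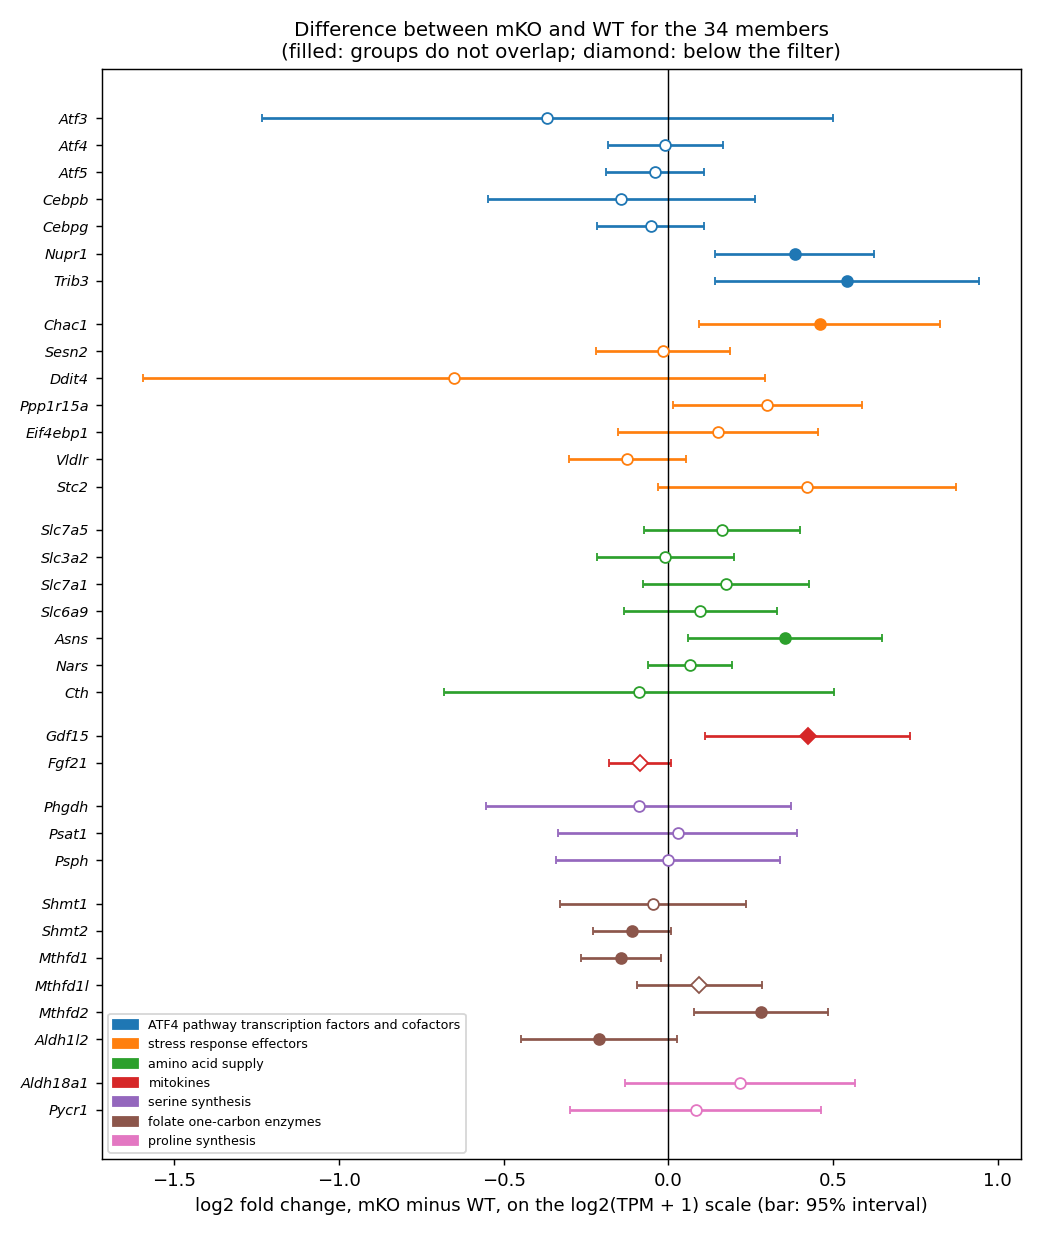
Difference of log2(TPM + 1), mKO minus WT (x axis), for the 34 members (y axis, by role, in colours), with bars for the 95% interval, filled symbols for groups that did not overlap and diamonds for the 3 members below the filter. Intervals are narrow for Atf4 (−0.18 to 0.17) and Nars (−0.06 to 0.19) and wide for Ddit4 (−1.59 to 0.29), and no member passed an adjusted p of 0.05.

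Set beside the promoter letters, 4 of the 5 tested members that were higher in every mKO library held TGATGNAA in their window, namely Nupr1, Trib3, Chac1 and Asns, and Mthfd2 did not. Of 7 tested members with the letters, 5 had a log2 fold change above 0, with a median of 0.35 and a range of −0.37 (Atf3) to 0.54 (Trib3). Of 19 tested members whose window lacked them, 7 lay above 0, with a median of −0.01. The members were chosen for the pathway the letters belong to, and both were chosen with earlier results of these data known. No test was made, and none of these members was called.

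**Figure D4:**
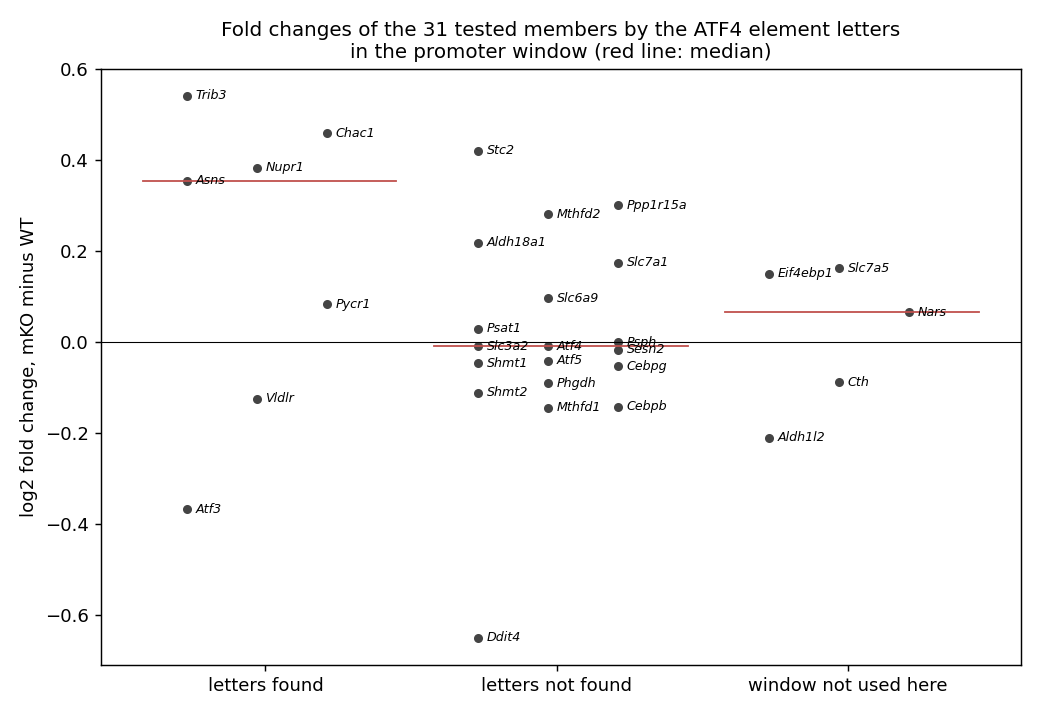
Log2 fold change, mKO minus WT (y axis), of the 31 tested members, split by whether the promoter window held TGATGNAA on either strand, did not, or was not used here, with a red line at the median of each class. Trib3, Chac1, Nupr1 and Asns stand at the top of the class with the letters, and Atf3 and Vldlr lie below 0 in it.

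Other genes of the pathway held a single call. The 16 genes of the eIF2alpha kinases, their exchange factor and the mitochondrial relay through Oma1 and Dele1 held 0 calls (2 at an unadjusted p under 0.05), with 3 above 0 and a median of −0.04. Of 24 other tested targets of ATF4 and CHOP, 1 was called, beside 0.520% of all tested genes. Gpt2, the mitochondrial alanine aminotransferase, stood at 10.2, 10.6 and 9.17 TPM in mKO, against 15.3, 18.8 and 19.2 TPM in WT. It fell in mKO, with each mKO library well below each WT library (log2 fold change −0.77, SE 0.10, adjusted p = 0.0245, limma). This call held in 7 of 14 other settings and was lost without mKO replicates 1 or 2 (adjusted p = 0.117 and 0.0551), without WT replicates 2 or 3 (0.171 and 0.102), with no filter (0.124), with mitochondrially encoded genes left out (0.0549) and with the replicate block (0.0676), in a range of 0.0181 to 0.171. The fast fibre markers given above were also lower in every mKO library in sum, and their part in the Gpt2 difference was not tested. The 9 aminoacyl-tRNA synthetases in that list, all classical ATF4 targets, lay between −0.05 and 0.09 with 0 called and 0 at an unadjusted p under 0.05. Ddit3, which encodes CHOP, is listed under 2 numbered names, of which the expressed entry was taken after its values were seen. It stood at 36.8, 42.96 and 33.6 TPM in mKO, against 38.6, 35.1 and 35.8 TPM in WT (log2 fold change 0.04, adjusted p = 0.917, limma), and lay at −0.05 without mKO replicate 2.

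The neighbouring lists held no called gene by the same fit. In the unfolded protein response of the endoplasmic reticulum 16 of 20 genes lay above 0, with a median of 0.03 and 1 at an unadjusted p under 0.05. Among 13 other amino acid transporters 5 lay above 0 (median −0.02, 2 at an unadjusted p under 0.05). Among 20 other genes of folate, methionine and glycine 7 lay above 0 (median −0.05, 0 at an unadjusted p under 0.05). Of 7 other genes of proline and ornithine 2 lay above 0 (median −0.03, 3 at an unadjusted p under 0.05). Of 15 mitochondrial chaperones and proteases 2 lay above 0 (median −0.07, 2 at an unadjusted p under 0.05), and of 14 partners of mTORC1 and the sestrins 6 did (median −0.03, 0 at an unadjusted p under 0.05). Of the 5 tested mitokine receptors and partners 2 lay above 0 (median −0.06, 0 at an unadjusted p under 0.05). These medians stand beside −0.01 for all tested genes, of which 44.87% lay above 0 and 10.7% had an unadjusted p under 0.05 (limma).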

How the data were processed

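Per the file headers, the authors deposited TPM values, 1 table for each library. Every table has the same total. Per the submitters' processing notes the genome build was GRCm39. The aligner, the counting tool and the use of strand are not given in the sources used here. Libraries were poly(A)-selected, per the labels' protocols. The series text gives 3 mice per group, but the labels tie no library to an animal, so p-values measure the spread between these samples.

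Limma-trend (limma 3.58.1, R 4.3.3) was run on log2(TPM + 1) for 12301 genes, those reaching 1 TPM in 3 or more of the 6 libraries, with genotype as the only term. P-values were adjusted by the Benjamini-Hochberg method over all of them, with a threshold of 0.05. Members below the filter took their fold change from a fit with no filter. The 95% intervals come from the same fits. Read numbers were recovered from TPM, the merged exon length of GENCODE M21 and a constant for each library. They came out whole, to within 0.05, in every library for 93.1% of 22729 genes (chance 10% in any single library) and for all 34 members. Even numbers made up 58.56% over all genes and 77.78% of the 18 member values between 0 and 100 reads, those of Gdf15 and Fgf21 all being even, so some pairs may have been counted as 2 reads. Read numbers and limits from a count of 0 cover counting error only. Libraries of the same group differed by more than counting error (chi-square over its degrees of freedom of at least 19.6), so none was counted as a repeat of another.

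The members, the lists and the search letters were chosen with earlier results of these data known. All members are named, with up to 4 called genes of each list, Stard7, Ddit3 and, below, Myh1 and Myh4. Of the listed names, 5 had no entry of that name and were not analysed, apart from Ddit3. Alternatives were other filters, pseudocounts and scalings, limma-voom on recovered reads, a replicate block and each library left out. In simulated reads drawn from WT means and spread, 3 against 3, the test recovered 92% of 100 genes at a log2 change of 1 and 99% of 100 at 2, with 8 false calls among 11209 genes. Neither the spread within mKO nor changes under 1 were simulated, and all members lay under 1 in the fit of all libraries. The simulation therefore does not show how often such changes would be called. In the data 3 of 9 fast markers were called, while Myh1 at −4.03 (adjusted p = 0.0515) and Myh4 at −4.73 (0.0576) were not (limma).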

Additional observations from a re-analysis of the deposited data

How the results depend on the processing

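No setting called a member, so each of the 31 tested members stayed on the same side of the threshold in every setting run. The number of called genes, 64, was 6 with no filter on low values, 41 with mitochondrially encoded genes left out and 21 with the replicate block, and lay between 4 (without WT replicate 2) and 94 (without mKO replicate 3) when each library was left out. It was within 1.5 times of 64 by limma-voom (92), with median-of-ratios scaling (48), at pseudocounts of 0.1 (60) and 5 (72) and where the filter was a mean of 1 TPM (51). Fewer samples enter when a library is left out, and the number rose without mKO replicate 3 (94) and fell without WT replicate 2 (4). The causes were not tested. The labels do not say whether libraries with the same replicate number share anything else. Deviations of such libraries correlated at 0.095, 0.0474 and 0.131. Every library correlated best with its own number, a hint from the data and not from the design. Of 435 member values in other settings, 396 kept their direction. All 39 that changed sign belong to members without a call, and apart from Atf3 (−0.367) none of them lay beyond −0.111 or 0.0833. Leaving out the mitochondrially encoded genes multiplies the TPM of all nuclear genes in a library by the same factor. On the log2(TPM + 1) scale the shift still differed by gene. Aldh1l2 moved from −0.21 to −0.179 and Asns from 0.355 to 0.517. In this setting the log2 fold changes that crossed 0 lay as follows, Atf4 at 0.109, Atf5 at 0.077, Cebpg at 0.0622, Sesn2 at 0.0698, Slc3a2 at 0.104, Cth at 0.00536, Phgdh at 0.0024, Psph at 0.101, Shmt1 at 0.0338 and Shmt2 at 0.00308. By limma-voom the log2 fold changes that crossed 0 lay as follows, Atf4 at 0.0432, Atf5 at 0.0109, Sesn2 at 0.0261, Slc3a2 at 0.0464 and Psph at 0.0553. With median-of-ratios scaling the log2 fold changes that crossed 0 lay as follows, Atf4 at 0.00364, Slc3a2 at 0.00234 and Psph at 0.00918. At a pseudocount of 5 it was Psph at 0.00118. Leaving out each library, the members that crossed 0, with Ddit3, had these ranges of log2 fold change: −0.587 to 0.0711 for Atf3, −0.0522 to 0.0683 for Atf4, −0.0851 to 0.00639 for Atf5, −0.105 to 0.00337 for Cebpg, −0.0968 to 0.0751 for Slc3a2, −0.389 to 0.119 for Cth, −0.246 to 0.126 for Phgdh, −0.0851 to 0.184 for Psat1, −0.116 to 0.126 for Psph, −0.134 to 0.0187 for Shmt1, −0.0946 to 0.206 for Pycr1 and −0.0525 to 0.121 for Ddit3. Depth limits Fgf21, Gdf15 and Mthfd1l most, with 0 to 48 recovered reads per library. A count test was not run on values in TPM.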
